A study of Mus musculus with 20 samples.

Results

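Antibody structure and transport genes, 10 in number, were followed through the cecum transcriptomes of 20 mice: the heavy chain constant region genes Igha, Ighm, Ighd, Ighg1, Ighg2b, Ighg2c and Ighg3, the kappa light chain constant region gene Igkc, the joining chain gene Jchain and the polymeric immunoglobulin receptor gene Pigr. They were chosen by name, and the Ensembl identifiers of all 10 matched rows among the 19887 genes of the count table. All 10 passed the filter on low counts, which left 15348 genes in the tests. The mice were C57BL/6, and all of them received the Total Western Diet (TWD), a rodent diet that models the nutrient profile eaten in Western countries, from 3 weeks of age for 6 weeks. Subgroups of 5 then stayed on the TWD (0% RPS) or received it with 2, 5 or 10% raw potato starch (RPS), a resistant starch, for 3 more weeks. The controls thus also ate the Western diet, and each comparison of diets below concerns RPS added to it. The RNA came from sections of the cecum with their mixed cells. A lower count could come from fewer cells of a type in the section or from less RNA per cell, which cannot be told apart in such samples. The mice are numbered 1 to 5 within each diet only as names. Total counts ran from 14967798 to 42687283 per mouse, and the 10 genes together took 0.273 to 0.646% of them.

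An antibody is built from paired heavy and light chains, and the constant region of its heavy chain sets its class. A B cell first makes IgM and IgD, and can then switch to IgG, IgE or IgA by deleting the DNA between its variable region and a constant region gene farther along the locus. In the gut wall most plasma cells make IgA, which is joined into dimers by the J chain and carried through the epithelial cell into the lumen by the polymeric immunoglobulin receptor.

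The 7 heavy chain genes lay on the minus strand of chromosome 12 in GRCm39, the build of the count table. In the direction of transcription their order was Ighm (chr12:113382178-113386350), Ighd (chr12:113370224-113379944), Ighg3 (chr12:113319844-113324852), Ighg1 (chr12:113288860-113294143), Ighg2b (chr12:113266585-113271553), Ighg2c (chr12:113248945-113252552) and Igha (chr12:113218450-113223856). Igkc lay on the plus strand of chromosome 6 (chr6:70703419-70703950), Jchain on the minus strand of chromosome 5 (chr5:88667668-88675750) and Pigr on the plus strand of chromosome 1 (chr1:130754397-130779986). The IgG subclass genes are close copies, so the hinge exons are shown because they are where these genes can be told apart most easily. The hinge joins the antigen-binding arms to the stem, and its cysteines link the heavy chains to each other. Each is exon 2 of its gene, printed 5′ to 3′ on the coding strand from the GRCm39 genome, with capitals marking the in-frame cysteine codons.
Ighg1, chr12:113293464-113293502, minus strand: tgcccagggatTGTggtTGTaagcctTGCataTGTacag
Ighg2b, chr12:113270881-113270946, minus strand: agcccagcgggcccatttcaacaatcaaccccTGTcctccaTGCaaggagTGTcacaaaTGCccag
Ighg2c, chr12:113251883-113251945, minus strand: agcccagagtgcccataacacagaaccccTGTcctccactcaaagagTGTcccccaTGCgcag
Ighg3, chr12:113324149-113324196, minus strand: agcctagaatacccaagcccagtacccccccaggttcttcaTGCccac
The hinge exons were 39, 66, 63 and 48 bases long and held 4, 4, 3 and 1 cysteine codons in the order shown. The first exons, of 291 bases each, had 78.4% (Ighg2c and Ighg3) to 88.3% (Ighg1 and Ighg2b) identical bases. Of all 50-base words of the exons, the length of the reads, 0.393% of those of Ighg1 also occurred in another annotated gene, against 1.58% for Ighg3, 4.15% for Ighg2b and 5.49% for Ighg2c. The share was 0 for Igha, Ighm, Ighd and Igkc, 0.288% for Jchain and 0.506% for Pigr. How reads that match more than one gene were counted is not given in the sources used here, so the counts of Ighg2b and Ighg2c are the least certain.

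The IgA and IgM heavy chains end, in their secreted forms, in a short tail that carries the cysteine to which the J chain binds, and both tails are shown because only these classes are exported by the polymeric immunoglobulin receptor. Each stretch of 57 bases ends with the stop codon, and capitals mark the cysteine codon.
Igha, chr12:113222388-113222444, minus strand: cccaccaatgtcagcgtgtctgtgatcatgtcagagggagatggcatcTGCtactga
Ighm, chr12:113384487-113384543, minus strand: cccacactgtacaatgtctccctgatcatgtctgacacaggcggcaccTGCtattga

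Per kilobase of exon, Igkc was the most abundant of the 10 genes over all mice, at 847 ± 379 counts scaled to a common library total (CPM) per kb (mean ± SD, n = 20). Pigr followed at 685 ± 110 CPM per kb, a difference within the spread of Igkc. Igha stood at 261 ± 103 and Jchain at 90.5 ± 39.5 CPM per kb. Ighm (26.6 ± 27.0) and Ighd (17.2 ± 20.7) varied widely between mice, but Ighm was above Ighd in every mouse. Ighg1 (8.06 ± 6.02) was above Ighg2b (3.96 ± 3.62) in most mice but not in all. Ighg3 (0.865 ± 0.963 CPM per kb) and Ighg2c (0.318 ± 0.485 CPM per kb) were near the limit of detection, with raw counts of 0 to 197 and 0 to 82 per mouse. Ighg2c had no count in 2 mice and Ighg3 in 1, where a count of 0 leaves room for up to 3 counts.

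The main question was how the mix of antibody transcripts moved with the amount of RPS. In the comparison of 10% with 0% RPS, 1 of the 10 genes passed the threshold, an adjusted p of at most 0.05 with a change of at least 1.5-fold, and that gene was Ighg1, which rose. Over all genes tested, 1.04% passed it in either direction and 0.547% did so as higher. All 10 genes had a higher estimate at 10% RPS, where 50.9% of all genes did, and the median log2 fold change of the 10 was 1.07 against 0.00 over all genes. At 5% RPS, 0 of 10 passed (edgeR's quasi-likelihood test), where 0.195% of all genes did. Ighg1 and Pigr had an unadjusted p under 0.05 at that dose as higher, where 6.74% of all genes did, and DESeq2 called 1 of the 10, Ighg1. At 2% RPS, 0 of 10 and 0% of all genes passed with edgeR, 1 of 10, Ighg1, had an unadjusted p under 0.05 as higher (2.58% of all genes), and DESeq2 also called 0. A linear trend over the 4 diets, with no fold threshold, was passed by 0 of the 10 genes and 1.11% of all genes, with unadjusted p under 0.05 as higher for Ighg1 and Pigr (9.37% of all genes) and a DESeq2 call for Ighg1. The 3 doses were compared with the same 5 control mice, so their values are given side by side and not counted as repeats of each other.

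**Figure D1:**
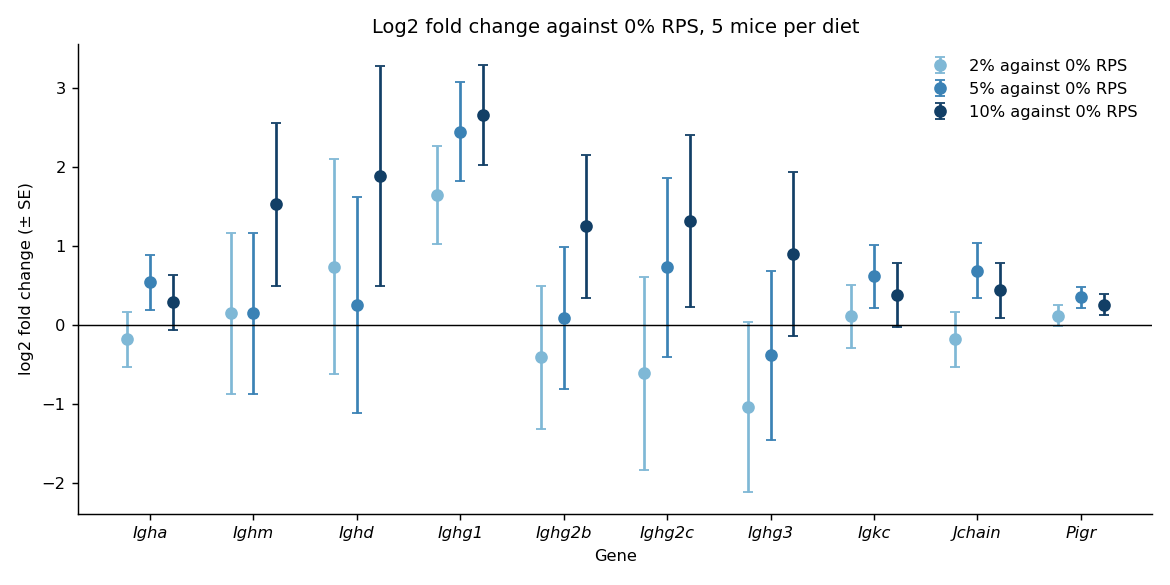
Log2 fold change of each gene (horizontal axis) against 0% RPS from the edgeR model, with bars of 1 standard error and 5 mice per diet; light, middle and dark points stand for 2, 5 and 10% RPS. Ighg1 stands at 1.65, 2.45 and 2.66 and passed the threshold at 10% RPS, while the bars of the other IgG genes, Ighm and Ighd are 0.90 or longer on each side.

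Ighg1 encodes the IgG1 heavy chain, a class made after help from T cells. Its level in the mice on 0% RPS was 5.31, 10.7, 2.06, 7.12 and 1.26 CPM for mice 1 to 5. On 2% RPS it was 2.92, 5.46, 32.5, 20 and 20.9 CPM. On 5% RPS it was 15.3, 23.3, 20, 41.4 and 43.7 CPM, and on 10% RPS 46.4, 17.4, 35.2, 17.9 and 49.3 CPM. Every mouse on 5 or 10% RPS was above every control mouse, and at 2% RPS mice 1 and 2 lay in the control range while the other 3 were above it. Of all genes, 1.53% stood wholly above the controls in this way at 5% RPS and 1.68% at 10% RPS. The log2 fold change was 1.65 (SE 0.62) at 2%, 2.45 (SE 0.63) at 5% and 2.66 (SE 0.63) at 10% RPS, with edgeR adjusted p of 0.818, 0.087 and 0.0405. With the Wald test of DESeq2 the adjusted p was 0.631, 0.00865 and 0.00177 in the same order. The slope was 0.222 per percent RPS on the log2 scale (SE 0.068, edgeR adjusted p 0.0982). With the rank of the dose in place of the dose the slope per rank was 0.859, with an edgeR adjusted p of 0.0338. The call at 10% RPS was lost when any one of control mice 1, 3, 4 and 5, of mice 1, 2, 3 and 5 on 10% RPS, or mouse 2 on 5% RPS was left out, with a log2 fold change of 2.42 to 3.08 over the 20 fits without 1 mouse and edgeR adjusted p up to 0.111.

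**Figure D2:**
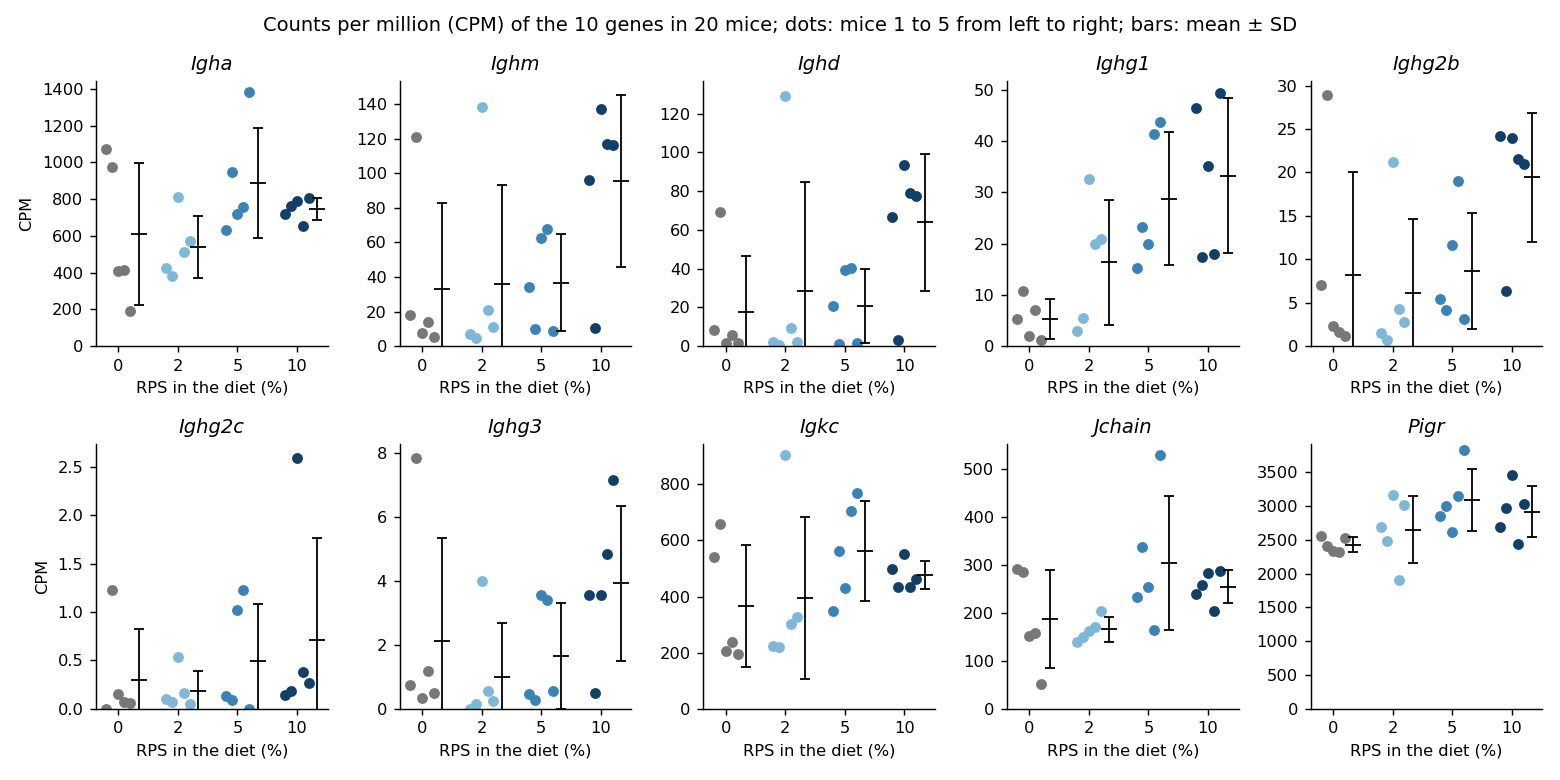
Level of each of the 10 genes in CPM (vertical axis, from 0, a scale of its own per panel) by RPS in the diet in percent; dots are mice 1 to 5 from left to right, and bars give the mean ± SD of 5 mice. Ighg1 lies between 15.3 and 49.3 CPM in the mice on 5 or 10% RPS and between 1.26 and 10.7 CPM in the controls, while Ighm, Ighd and Ighg2b have single high mice at 0 and 2% RPS and a single low mouse at 10% RPS.

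The 3 other IgG genes had no such separation. Ighg2b, the IgG2b heavy chain gene, was at 7, 28.9, 2.29, 1.68 and 1.15 CPM on 0% RPS and at 24.2, 6.40, 24.0, 21.6 and 21.0 CPM on 10% RPS. Control mouse 2 was the highest of all 20 mice, and mouse 2 on 10% RPS lay in the control range, so the groups overlapped. The log2 fold change was 1.25 (SE 0.91) at 10% RPS, 0.09 (SE 0.90) at 5% and -0.41 (SE 0.91) at 2%, with edgeR adjusted p of 0.47 to 0.985. Ighg3, which encodes a subclass made largely without T cell help, had 0.749, 7.84, 0.338, 1.18 and 0.488 CPM on 0% RPS and 3.56, 0.490, 3.57, 4.85 and 7.16 CPM on 10% RPS. The 10% RPS mice other than mouse 2 were above 4 of the 5 controls, but control mouse 2 was above them all. Its log2 fold change was 0.90 (SE 1.04) at 10%, -0.38 (SE 1.07) at 5% and -1.04 (SE 1.08) at 2% RPS. Ighg2c, the gene C57BL/6 mice carry in place of Ighg2a, had a median of 0.0671 CPM on 0% RPS and 0.263 CPM on 10% RPS, with highest values of 1.23 and 2.59 CPM. These levels rest on 0 to 31 and 4 to 82 counts, and the log2 fold change of 1.32 (SE 1.09) fell to -0.29 without mouse 3 on 10% RPS.

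Ighm and Ighd, the heavy chain genes of IgM and IgD, are spliced from the same long transcript in resting B cells. Ighm was at 18.0, 121, 7.32, 13.7 and 5.42 CPM on 0% RPS, and at 6.76, 4.52, 138, 20.7 and 10.8 CPM on 2% RPS. On 5% RPS it was at 33.9, 9.85, 62.7, 67.6 and 8.95 CPM, and on 10% RPS at 96.1, 10.2, 137, 117 and 116 CPM. The level was therefore high in 4 of 5 mice on 10% RPS, intermediate in 3 mice on 5% RPS, and high in a single mouse each at 0 and 2% RPS. Ighd followed the same mice, with 8.37, 69.4, 1.39, 5.98 and 1.66 CPM on 0% RPS and 66.8, 2.97, 93.3, 79.2 and 77.5 CPM on 10% RPS. The groups overlapped for both genes, with log2 fold changes at 10% RPS of 1.53 (SE 1.03, edgeR adjusted p 0.432) for Ighm and 1.89 (SE 1.39, edgeR adjusted p 0.478) for Ighd. At 5% RPS the values were 0.15 (SE 1.02) and 0.25 (SE 1.37), and at 2% RPS 0.15 (SE 1.02) and 0.74 (SE 1.36).

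The level of B cell genes moved with these genes and is given as the mean log2 CPM of Ms4a1, Pax5, Cd22, Cr2 and Fcer2a, which encode surface proteins of mature B cells and, for Pax5, their defining transcription factor. Its median was 1.23 at 0%, 0.11 at 2%, 3.29 at 5% and 4.91 at 10% RPS, with ranges of -1.11 to 4.59, -1.68 to 5.32, -0.60 to 4.02 and 0.72 to 5.27. The highest control was mouse 2, the highest at 2% RPS was mouse 3, and the lowest at 10% RPS was mouse 2, the same mice that stood apart for Ighm and Ighd. Over the 20 mice, which share the library scaling with the level, Pearson's r with it was 0.99 for Ighm, 0.99 for Ighd, 0.93 for Ighg2b, 0.89 for Ighg3 and 0.72 for Ighg2c. It was 0.62 for Ighg1, 0.59 for Igkc, 0.44 for Igha, 0.28 for Jchain and 0.11 for Pigr. Within diets the values were 0.98, 0.99, 0.91, 0.89, 0.68, 0.61, 0.57, 0.37, 0.11 and -0.09 in the same order. All 18 genes of the wider B cell list were tested and had higher estimates at 10% RPS, with a median log2 fold change of 1.96, but 0 passed the threshold with edgeR and 3 had an unadjusted p under 0.05 as higher, where 9.74% of all genes did. Their summed level ran from 91.0 to 482 CPM at 0%, 90.5 to 702.04 at 2%, 102 to 359 at 5% and 119 to 639 at 10% RPS. The part of the number of B cells or follicles sampled in the antibody results was not tested.

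**Figure D3:**
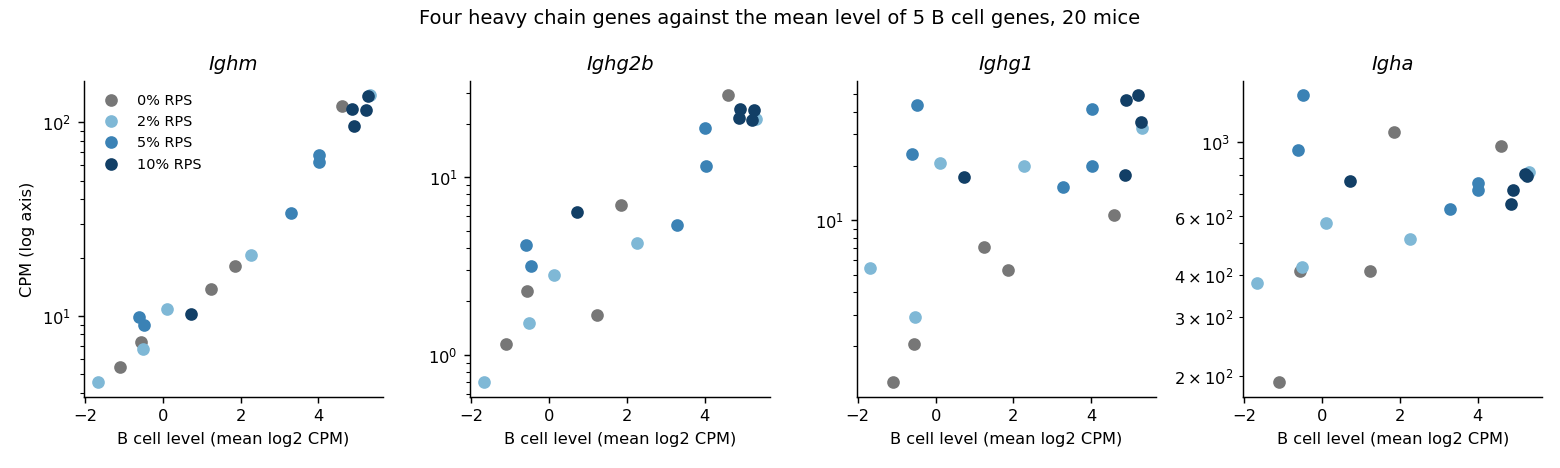
CPM of Ighm, Ighg2b, Ighg1 and Igha (vertical axes, log scale) against the B cell level, the mean log2 CPM of 5 B cell genes (horizontal axes), with 1 point per mouse colored by diet. Ighm lies along 1 line over all diets (r = 0.99, n = 20), while r is 0.62 for Ighg1.

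With the B cell level as a covariate, an alternative added after the data were seen, the log2 fold change at 10% RPS was -0.02 for Ighm, -0.40 for Ighd, -0.12 for Ighg2c and -0.73 for Ighg3. That of Ighg1 was 2.08 (edgeR adjusted p 0.0723) at 10% RPS and 2.57 (edgeR adjusted p 0.0381) at 5% RPS. Igha, Ighg2b, Igkc, Jchain and Pigr stayed higher at 10% RPS with the covariate. Their lowest log2 fold changes at 10% RPS over all alternatives in processing were 0.12, 0.26, 0.03, 0.41 and 0.26 in that order. The B cell level was below 0 in control mice 3 and 5 (-0.565 and -1.106), mice 1 and 2 on 2% RPS (-0.517 and -1.678) and mice 2 and 5 on 5% RPS (-0.605 and -0.475). Ighg1 was at 2.06 and 1.26 CPM in these controls, at 2.92 and 5.46 CPM in the mice on 2% RPS and at 23.3 and 43.7 CPM in those on 5% RPS. These mice were picked after the data were seen, and no mouse on 10% RPS had a level below 0. All mice on 5% RPS were above all controls for Ighg1, so the order of these values was fixed by that and tests nothing further. The part of B cell content in the Ighg1 result was not tested beyond this covariate.

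Igha, the heavy chain gene of IgA and the most abundant class, was at 1071, 974, 411, 413 and 191 CPM on 0% RPS. It was at 424, 379, 813, 512 and 574 CPM on 2% RPS, at 631, 947, 720, 758 and 1383 CPM on 5% RPS, and at 721, 764, 791, 653 and 805 CPM on 10% RPS. The controls spanned the whole range of the 10% RPS mice, with the highest control 5.61 times the lowest, against 1.23 times on 10% RPS. The log2 fold change was -0.18 (SE 0.35) at 2%, 0.54 (SE 0.35) at 5% and 0.29 (SE 0.35) at 10% RPS, with edgeR adjusted p of 0.982, 0.554 and 0.693. Jchain, whose product joins IgA into dimers and IgM into pentamers, was at 188 ± 102 CPM on 0%, 165 ± 24.9 on 2%, 304 ± 140 on 5% and 255 ± 34.8 CPM on 10% RPS (SD, n = 5). Its log2 fold change was 0.69 (SE 0.35) at 5% and 0.44 (SE 0.35) at 10% RPS, with edgeR adjusted p of 0.41 and 0.512. Igkc, the constant region of the light chain most mouse antibodies carry, was at 367 ± 216, 396 ± 288, 562 ± 178 and 477 ± 49.8 CPM from 0 to 10% RPS. Its log2 fold changes of 0.11, 0.62 and 0.38 (SE 0.40 each) had edgeR adjusted p of 0.99, 0.552 and 0.645. Igkc took 79.0 to 95.5% of the counts of kappa and lambda constant regions in the 20 mice.

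Pigr, made by epithelial cells, was at 2556, 2412, 2337, 2321 and 2531 CPM on 0% RPS and at 2698, 2477, 3166, 1901 and 3014 CPM on 2% RPS. On 5% RPS it was at 2855, 3002, 2622, 3157 and 3828 CPM, and on 10% RPS at 2697, 2980, 3458, 2435 and 3035 CPM. The controls were close together, every mouse on 5% RPS was above all of them, and at 10% RPS mouse 4 lay within their range. Of all genes, 1.53% stood wholly above the controls at 5% RPS. The log2 fold change was 0.12 (SE 0.13) at 2%, 0.35 (SE 0.13) at 5% and 0.26 (SE 0.13) at 10% RPS, with edgeR adjusted p of 0.962, 0.214 and 0.259, so none passed the threshold. Of the 26 tested genes that regulate Pigr or carry cargo through epithelial cells, 0 passed the threshold at 10% RPS with edgeR, 3 had an unadjusted p under 0.05 as higher and 4 as lower, where 9.74% and 9.75% of all genes did. Among them Rab25, a GTPase of apical recycling endosomes, had a log2 fold change of -0.31 (SE 0.08, edgeR adjusted p 0.0477), and Tnfrsf1a, a receptor for tumor necrosis factor, -0.43 (SE 0.11, edgeR adjusted p 0.0471), both smaller than the fold threshold. Ticam1, an adaptor of Toll-like receptors, fell with dose by 0.048 per percent RPS on the log2 scale (SE 0.011, edgeR adjusted p 0.0445). The 12 epithelial marker genes summed to 39362 to 47016 CPM at 0%, 35479 to 47758 at 2%, 30868 to 37954 at 5% and 27712 to 43916 CPM at 10% RPS. Car1 alone took the largest part of that sum, at 25146 ± 2139, 21487 ± 3102, 19325 ± 1980 and 18627 ± 4056 CPM from 0 to 10% RPS. The sum thus mostly follows this 1 gene and is no measure of epithelial content. The part of epithelial content in the Pigr values was not tested.

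The balance of classes was measured as the share of each class in the counts of the 7 heavy chain genes of a mouse, which rested on 6994 to 37989 counts. The shares of a mouse sum to 100%, so a higher share of one class lowers the others. IgA took 96.4, 80.3, 96.8, 93.3 and 95% on 0% RPS and 75.2, 95.3, 72.8, 73.0 and 74.8% on 10% RPS. On 10% RPS, 4 mice had lower IgA shares than any control, and mouse 2 had a share within the control range. The mean was 92.4 ± 6.88% against 78.2 ± 9.59% (SD, n = 5 each), with a two-sided exact permutation p of 0.0317 that was 0.15 after adjustment over the 44 class balance tests. IgM took 3.82 ± 3.48% on 0% and 9.55 ± 4.79% on 10% RPS (exact permutation p = 0.0952, adjusted p = 0.279), and IgD 1.80 ± 2.22% and 6.40 ± 3.47% (exact permutation p = 0.0397, adjusted p = 0.15). Per kilobase of exon the mean IgA share was 90.4% on 0% and 73.6% on 10% RPS.

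The IgG share rested on 93 to 2130 counts per mouse. It was 1.18, 4.02, 1.14, 2.27 and 1.47% on 0% RPS, 1.03, 1.63, 5.12, 4.41 and 3.92% on 2% RPS, 3.01, 2.82, 4.22, 6.98 and 3.29% on 5% RPS, and 7.75, 3.05, 6.02, 5.00 and 7.22% on 10% RPS. On 10% RPS 4 mice were above every control, and mouse 2 lay below control mouse 2. The mean went from 2.02 ± 1.21% through 3.22 ± 1.79% and 4.07 ± 1.72% to 5.81 ± 1.87% (SD, n = 5 each). Over the 20 mice the slope was 0.364 percentage points per percent RPS (permutation p = 0.00119, adjusted p = 0.0524). The slope passed an adjusted permutation p of 0.05 without control mouse 2, mouse 3 on 2% RPS, mouse 4 on 5% RPS or mouse 2 on 10% RPS, and was 0.318 to 0.432 over the 20 fits without 1 mouse. None of the 44 tests passed an adjusted p of 0.05, and an exact test of 5 mice against 5 cannot go below 0.00794. At 5% RPS the IgA share averaged 89.3 ± 6.74% and at 2% RPS 89.9 ± 10.7%, with exact permutation p against the controls of 0.5 and 0.643.

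**Figure D4:**
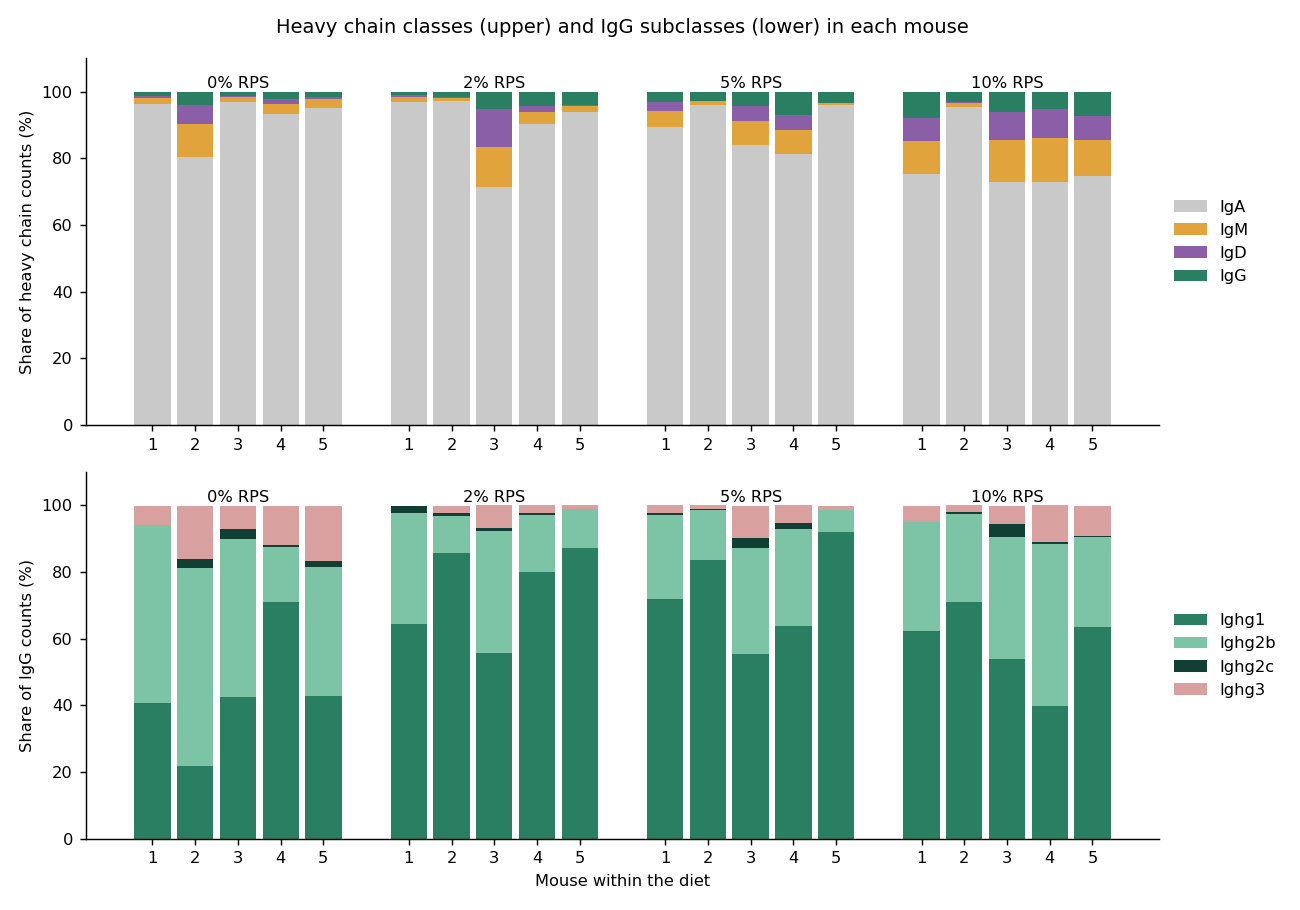
Stacked bars of the share of each class in heavy chain counts (upper panel) and of each subclass in IgG counts (lower panel), in percent, for mice 1 to 5 of each diet. IgA takes 72.8 to 75.2% in 4 mice on 10% RPS and 95.3% in mouse 2, and Ighg1 takes 21.9 to 70.9% of IgG counts in the controls and 55.8 to 87.1% on 2% RPS.

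Within IgG, no difference in a subclass share between diets passed the adjustment for the number of tests. Ighg1 took 40.6, 21.9, 42.6, 70.9 and 42.7% of IgG counts on 0% RPS and 64.5, 85.8, 55.8, 80.1 and 87.1% on 2% RPS. Control mouse 4 lay inside the range of the 2% RPS mice and the other controls lay below it. The 95% Wilson intervals, which cover counting error only, were 33.6 to 52.4% for control mouse 5 with the fewest counts of that diet and 54.4 to 73.5% for mouse 1 on 2% RPS. The means were 43.8 ± 17.5, 74.6 ± 13.8, 73.3 ± 14.8 and 58.1 ± 11.9% from 0 to 10% RPS (SD, n = 5 each), so the highest mean share was at 2% RPS and not at 10%. Against the controls the exact permutation p was 0.0238 at 2%, 0.0238 at 5% and 0.167 at 10% RPS, with adjusted p of 0.15, 0.15 and 0.407. Ighg3 took 11.4 ± 5.00% on 0% RPS and 2.47 ± 2.63, 3.89 ± 3.71 and 6.47 ± 3.56% on 2, 5 and 10% RPS, with exact permutation p of 0.0159, 0.0317 and 0.119 and adjusted p of 0.15, 0.15 and 0.327. Ighg2b took 43.2 ± 16.7% on 0%, 21.9 ± 12.1% on 2%, 21.6 ± 10.6% on 5% and 34.2 ± 9.03% on 10% RPS.

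Ratios of counts, 3 in number and on the log2 scale, asked whether the partners of an antibody moved together. The ratio of Igkc to the 7 heavy chain genes was -0.78 ± 0.42, -0.78 ± 0.26, -0.83 ± 0.25 and -1.01 ± 0.13 from 0 to 10% RPS (SD, n = 5 each). The ratio of Jchain to Igha plus Ighm was -1.73 ± 0.26 on 0% and -1.73 ± 0.13 on 10% RPS. The ratio of Pigr to Igha was 2.26 ± 1.02 on 0% and 1.96 ± 0.10 on 10% RPS. Among the controls the highest level was 5.61 times the lowest for Igha and 1.10 times for Pigr. The smallest exact permutation p of these ratios between diets was 0.333. The ratio of control mouse 5 for Igkc to heavy chains was -0.05, against -1.05 to -0.88 in the other controls.

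Across the 20 mice, 6 relations between these genes were computed on log2 CPM. Igha and Jchain were related with Pearson's r = 0.92 and Spearman's rho = 0.86, each with the smallest permutation p possible, 1e-05 (adjusted 3e-05). Their r was 0.82 without the 2 mice farthest from the median of Igha and 0.89 within diets. Igha and Igkc had r = 0.88 and rho = 0.92 with the same p, r = 0.90 without those 2 mice and 0.84 within diets. Igha and Ighg1 had r = 0.72 (permutation p = 0.00025, adjusted 0.0005) and rho = 0.57 (permutation p = 0.0101, adjusted 0.0151), with r = 0.55 without the 2 mice and 0.69 within diets. Ighm and Igkc had r = 0.64 (permutation p = 0.00292, adjusted 0.00438) and rho = 0.61 (permutation p = 0.00459, adjusted 0.00918). For this pair r was 0.57 without the 2 mice farthest from the median of Ighm and 0.63 within diets.

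The weakest relations were those of Igha with Ighm and with Pigr. Igha and Ighm had r = 0.47 (permutation p = 0.0312, adjusted 0.0312) and rho = 0.49 (permutation p = 0.0276, adjusted 0.0276). Without the 2 mice farthest from the median of Igha r was 0.58, and within diets 0.41. Igha and Pigr had r = 0.52 (permutation p = 0.0182, adjusted 0.0218) and rho = 0.55 (permutation p = 0.0126, adjusted 0.0152), with r = 0.46 without the 2 mice and 0.33 within diets. Leaving out control mouse 2, 3 or 5 or mouse 1 or 2 on 2% RPS brought the adjusted permutation p of the relation of Igha and Ighm above 0.05, at r = 0.39 without control mouse 5. Leaving out mouse 5 on 5% RPS, which had the highest Igha and Pigr of all mice, brought the relation of Igha and Pigr to r = 0.41 and its adjusted permutation p to 0.0842.

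Genes with like levels over the 20 mice were sought among 13496 genes with a mean of at least 1 CPM, with immunoglobulin genes left out. Those most like Igha were Jchain (r = 0.92), Col6a5 (0.86), Derl3 (0.86), a gene of the endoplasmic reticulum's protein quality control, Slpi (0.83), a secreted protease inhibitor, and Clec4n (0.83). Those most like Ighm were Cd79b, H2-DMb2, H2-Ob, Cd79a and Pld4, each with r = 0.99; Cd79a and Cd79b encode the signaling part of the B cell receptor, and H2-DMb2 and H2-Ob act in peptide loading of class II molecules. Those most like Ighg1 were Cd274 (0.90), the ligand PD-L1, Swap70 (0.84), a B cell signaling gene, Ctla4 (0.83), an inhibitory receptor of T cells, Adgre5 (0.83) and Atf7ip (0.83). Those most like Pigr were Mov10 (0.83), an RNA helicase, Acss1 (0.83), a mitochondrial acetyl-CoA synthetase, Aoc1 (0.82), the diamine oxidase, Gnpda1 (0.82) and Cachd1 (0.82). These are descriptions over mice that share diets and library scaling.

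The other genes of antibody production were followed in 15 lists, of which 193 different genes were tested. At 10% RPS 5 of the 193 passed the threshold, all higher, where 0.547% of all genes passed as higher. DESeq2 called 11 of them, a fit of only the 2 diets 1, and edgeR 18 without control mouse 2 and 0 without control mouse 3 or mouse 1 or 3 on 10% RPS. Among 12 tested Fc and immunoglobulin receptors, Fcamr, a receptor for IgA and IgM, rose from 4.83 ± 1.24 to 8.48 ± 1.39 CPM, with a log2 fold change of 0.81 (SE 0.16, edgeR adjusted p 0.0251). Every mouse on 10% RPS was above every control for Fcamr, as was the case for 1.68% of all genes. Fcgrt, the neonatal Fc receptor that carries IgG across cells, was at 92.2 ± 10.1 and 83.7 ± 13.0 CPM (log2 fold change -0.14, SE 0.10). Fcgr2b, the inhibitory IgG receptor, had a log2 fold change of 0.86 (SE 0.28, edgeR adjusted p 0.109), and Lgals3, which binds IgE, of -0.34 (SE 0.16, edgeR adjusted p 0.245). Among 19 tested genes of IgA induction, Nos2, the inducible nitric oxide synthase, rose from 0.792 ± 0.482 to 4.42 ± 2.73 CPM, with a log2 fold change of 2.48 (SE 0.55, edgeR adjusted p 0.0289). Tnfrsf13b, the receptor TACI, had a log2 fold change of 1.72 (SE 0.69, edgeR adjusted p 0.181) and Tslp, an epithelial cytokine, of -0.53 (SE 0.24, edgeR adjusted p 0.232). Tnfsf13, the ligand APRIL, is listed with 0 counts in all 20 mice.

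Among 23 tested genes of the germinal center and class switching, 20 had higher estimates at 10% RPS, against 50.9% of all genes. Their median log2 fold change was 0.20 against 0.00 over all genes. None passed the threshold with edgeR, against 0.547% of all genes as higher, and 4 were higher with an unadjusted p under 0.05, against 9.74% of all genes. Mybl1, a transcription factor of germinal center B cells, had a log2 fold change of 1.02 at 10% RPS (SE 0.27, edgeR adjusted p 0.0554) and rose with dose by 0.107 per percent RPS (SE 0.024, edgeR adjusted p 0.0375). Gcsam, a germinal center signaling gene, had a log2 fold change of 1.79 (SE 0.60, edgeR adjusted p 0.113), and S1pr2, which confines B cells to the follicle, of 0.44 (SE 0.15, edgeR adjusted p 0.117). Ms4a1 (1.90, SE 1.21) and Cd79a (1.67, SE 1.22) had large log2 fold changes with large errors. The 3 genes of the B cell list with the lowest p were Ebf1 (0.81, SE 0.29), Ralgps2 (0.20, SE 0.08) and Cd72 (1.60, SE 0.74).

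Among 17 tested plasma cell genes, 9 had higher estimates at 10% RPS and the median log2 fold change was 0.11, close to the 0.00 of all genes. The genes named below went from -0.55 for Sdc1 to 1.38 for Irf4. Some of the list are also expressed by other cells of the tissue, so the median does not measure plasma cells alone. Xbp1, the transcription factor of secretory cells, was at 158 ± 34.4 and 136 ± 14.2 CPM (log2 fold change -0.21, SE 0.12), and Tnfrsf17, the plasma cell receptor BCMA, at 0.438 ± 0.220 and 0.769 ± 0.314 CPM (0.83, SE 0.44). Irf4, a transcription factor of plasma cells, had a log2 fold change of 1.38 (SE 0.53, edgeR adjusted p 0.161) and Cd38 of 0.81 (SE 0.37, edgeR adjusted p 0.237). Sdc1, a surface proteoglycan of plasma cells that epithelial cells also carry, was at 305 ± 52.9 and 209 ± 27.7 CPM, a log2 fold change of -0.55 (SE 0.13, edgeR adjusted p 0.0376) that was smaller than the fold threshold. Mzb1 is listed with 0 to 13 counts per mouse and Ccr10 with 0 in all mice, although both mark IgA plasma cells. How overlapping genes were counted is not given in the sources used here, so these zeros, like that of Tnfsf13, do not show that a gene was not expressed. The summed level of the 18 plasma cell genes ran from 1485 to 2102 CPM at 0% and 1471 to 1777 CPM at 10% RPS. Hsp90b1 took the largest part of that sum, at 667 ± 128 and 610 ± 117 CPM, so the sum says little of the genes at low levels. All 13 tested homing genes had higher estimates at 10% RPS, with a median log2 fold change of 0.78. None passed with edgeR, and 4 were higher with an unadjusted p under 0.05, against the 9.74% of all genes. The log2 fold change was 1.11 (SE 0.33) for Itga4, 2.17 (SE 0.98) for Ccr6, 0.78 (SE 0.35) for Vcam1 and 0.29 (SE 0.19) for the chemokine Ccl28, which draws IgA plasma cells to the gut. Of the other constant regions, Ighe, the IgE gene, was at 0.227 ± 0.342 and 0.846 ± 0.790 CPM (log2 fold change 1.93, SE 0.79), Iglc3 at 6.15 ± 5.97 and 15.7 ± 6.78 CPM (1.36, SE 0.71) and Iglc2 at 17.3 ± 15.2 and 23.3 ± 12.9 CPM (0.43, SE 0.60).

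Markers of other cells in the cecum wall also moved with diet. Among 8 smooth muscle genes, Actg2 rose by a log2 fold change of 1.28 (SE 0.30, edgeR adjusted p 0.0358) and Synm by 1.61 (SE 0.41, edgeR adjusted p 0.0479) at 10% RPS, and Actg2 rose by 1.53 (SE 0.30, edgeR adjusted p 0.0425) at 5% RPS. Cnn1, a further contractile gene, had a log2 fold change of 0.86 (SE 0.27, edgeR adjusted p 0.0906). Among 12 epithelial genes, Slc26a3, a chloride and bicarbonate exchanger, rose by 0.61 (SE 0.16, edgeR adjusted p 0.0487), 10 had lower estimates, and Car1 (-0.43, SE 0.14) and Cdh1 (-0.22, SE 0.08) did not pass. Among 9 tested genes of follicle stroma and M cells, Ccl19 (2.06, SE 0.98), Enpp2 (0.74, SE 0.35) and the B cell chemokine Cxcl13 (1.49, SE 0.72) had the lowest p, and none passed. Of 10 T cell genes (Cd2 1.29, SE 0.65; Cd4 0.79, SE 0.48; Cd8b1 1.37, SE 0.88), 10 macrophage genes (Mertk 0.30, SE 0.10; Lyz2 1.11, SE 0.42; Csf1r 0.54, SE 0.27) and 10 genes of stroma and endothelium (Kdr -0.33, SE 0.11; Col3a1 0.58, SE 0.20; Col1a1 0.68, SE 0.24), 0 passed with edgeR. At an unadjusted p under 0.05, 0 T cell genes were higher or lower, 2 macrophage genes were higher, and 3 genes of stroma and endothelium were higher and 2 lower, where 9.74% of all genes were higher and 9.75% lower. Of the 3 tested genes of neighbouring tissue, Slc10a2, the ileal bile acid transporter, had a log2 fold change of 0.90 (SE 0.25, edgeR adjusted p 0.0641), Fabp6 of -0.85 (SE 0.41) and Cela1 of 0.01 (SE 0.08). The summed smooth muscle level ran from 2476 to 5765 CPM at 0%, from 3280 to 5744 CPM at 2%, from 4212 to 9786 CPM at 5% and from 4049 to 6771 CPM at 10% RPS, with medians of 3285, 4269, 6544 and 5939 CPM. At 5% RPS all 8 smooth muscle genes were higher with an unadjusted p under 0.05, against 6.74% of all genes. The part of tissue composition in the antibody results was not tested.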

How the data were processed

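RNA of cecum sections from 20 mice was made into stranded poly(A) libraries and sequenced by the authors as single reads of 50 bases. The authors mapped the reads to GRCm39 and deposited raw counts per gene, not normalized, from CLC Genomics Workbench; the annotation release, the strand setting and the treatment of multi-mapping reads are not given in the sources used here. Of 19887 identifiers, 19827 matched GENCODE M39 symbols. Groups were taken from the treatment labels. The 10 members and all gene lists were chosen with earlier results of these data known.

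Counts were tested with edgeR 4.0.16 (R 4.3.3): filterByExpr (minimum count 10, minimum total 15), TMM scaling, robust quasi-likelihood fit of all 4 diets, Benjamini-Hochberg adjustment over 15348 genes; SE was taken from the fold change and its F. A call needed an adjusted p of at most 0.05 and a 1.5-fold change; the trend had no fold threshold. CPM used TMM-scaled totals. Only the edgeR comparison of 10% with 0% RPS was tested on simulated data, in which genes varied independently of each other. Class shares and count ratios were compared by two-sided exact permutation over the 252 assignments of mice. Their slopes and the 6 relations were tested by 100000 permutations, the relations on log2 CPM (prior count 2). Only in the alternative with log2 ratios of a class to the others was 0.5 added to the counts. The rule for naming took all 10 members. Of each other list it took genes called in any comparison and the 3 of lowest p at 10% RPS. It also took Xbp1, Tnfrsf17, Ms4a1, Cd79a, Tnfsf13, Ccl28, Fcgrt and Fcamr. With immunoglobulin genes left out, it took the 5 genes most like each of Igha, Ighm, Ighg1 and Pigr. Some genes that this rule names are not reported here. The plasma cell markers Mzb1 (low) and Ccr10 (at 0) were named after their values were seen, and so was Hsp90b1, for its part in a sum. Alternatives were DESeq2 1.42.0 (Wald test, size factors), other filters, scaling without immunoglobulin genes, a fit that was not robust, only the 2 diets compared, the rank of the dose, each mouse left out, counts per kb and log2 ratios. Replicates are separate mice; no 2 mice of a diet agreed within sampling noise. Sequences were read from GRCm39. The depth limits Ighg2c and Ighg3 above all.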

Additional observations from a re-analysis of the deposited data

Results flagged for a closer look

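Of 84 sets of 5 mice (10 genes and 11 class measures in 4 diets), 28 held a flagged mouse. Its gap to the nearest other, divided by the range of the set, was above Dixon's 95% critical value of 0.71. For normally distributed values, chance alone flags about 1 in 20 sets. CPM and shares were taken without logs, so that rate need not hold here and no excess is drawn from it. The flags were not independent, since most came from 3 mice.

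Control mouse 2 stood apart from the other controls for Ighm (121 CPM, next 18.0), Ighd (69.4, next 8.37), Ighg2b (28.9, next 7), Ighg2c (1.23, next 0.15) and Ighg3 (7.84, next 1.18). Its shares of heavy chain counts did so too, at 80.3% for IgA, 9.94% for IgM and 5.72% for IgD. Its B cell level was 4.59, the highest of the controls.

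Mouse 3 on 2% RPS stood apart for Ighm (138 CPM, next 20.7), Ighd (129, next 9.48), Ighg2b (21.2, next 4.28), Ighg2c (0.539, next 0.161), Ighg3 (4.01, next 0.547) and Igkc (905, next 327). Its heavy chain shares were 71.4% for IgA, 12.1% for IgM and 11.3% for IgD, its log2 ratio of Igkc to heavy chains was -0.33 and that of Jchain to Igha plus Ighm was -2.54. Its B cell level was 5.32, the highest of all 20 mice.

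Mouse 2 on 10% RPS stood apart in the other direction, with 6.40 CPM of Ighg2b (next 21.0) and shares of 95.3% for IgA, 1.28% for IgM and 0.371% for IgD. Its B cell level was 0.72, the lowest of that diet.

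Single flags remained for mouse 3 on 10% RPS, with 2.59 CPM of Ighg2c, an Ighg2c share of IgG of 3.96% and a log2 ratio of Pigr to Igha of 2.13. Mouse 4 on 5% RPS had a log2 ratio of Jchain to Igha plus Ighm of -2.34. Control mouse 5 had a log2 ratio of Igkc to heavy chains of -0.05.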

How the results depend on the processing

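No paired analysis was possible because the labels give each mouse a number of its own and no number is shared between diets. The log2 fold changes of the 10 genes kept their direction under every alternative that kept all 20 mice except the B cell covariate. The number of these genes past the threshold at 10% RPS went from 1 to 0 with no filter on low counts (Ighg1 edgeR adjusted p 0.055), with only the 2 diets compared (0.0651) and with the B cell covariate (0.0723); at 5% RPS it went from 0 to 1 with DESeq2 and with the covariate, and for the trend from 0 to 1 with DESeq2 and with the rank of the dose. The list genes past the threshold at 10% RPS went from 5 to 11 with DESeq2, 1 with only the 2 diets, 8 with no fold threshold and 2 with the covariate. The covariate, added after the data were seen, turned Ighm at 10 and 2% RPS to -0.02 and -0.01, Ighd to -0.40, -0.31 and -0.15 at 10, 5 and 2% RPS with a slope of -0.038, Ighg2c at 10% RPS to -0.12, and Ighg3 to -0.73 with a slope of -0.040; the cause was not tested. As log2 ratios, the IgM share differed from the controls by -0.106 at 5% and -0.140 at 2% RPS and the IgD share by -0.224 and -0.387. Without Ighd in the sum the IgG slope was 0.399 (permutation adjusted p 0.048) and the ratio of Igkc to heavy chains at 2% RPS 0.02; per kb the ratio of Jchain to Igha plus Ighm was -0.04 at 10% RPS with a slope of -0.003.

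Without 1 mouse, the genes past the threshold numbered 0 to 1 at 10% RPS and for the trend (1 without mouse 3 on 2% RPS only), and the list genes 0 to 18, the highest without control mouse 2 and 0 without control mouse 3 or mouse 1 or 3 on 10% RPS. At 2% RPS the log2 fold change ran from -0.39 to 0.12 for Igha, -1.60 to 1.73 for Ighm, -2.25 to 2.74 for Ighd, -1.78 to 1.04 for Ighg2b, -1.60 to 1.43 for Ighg2c, -3.03 to 0.57 for Ighg3, -0.44 to 0.44 for Igkc and -0.41 to 0.03 for Jchain. At 5% RPS it ran from -0.19 to 1.72 for Ighm, -0.15 to 2.24 for Ighd, -0.44 to 1.52 for Ighg2b, -0.12 to 2.77 for Ighg2c and -0.89 to 1.23 for Ighg3, and at 10% RPS from -0.29 to 3.36 for Ighg2c. The class shares moved from -5.46 to 2.19 percentage points for IgA at 2% RPS, -0.397 to 1.91 and -1.78 to 1.77 for IgM at 5 and 2% RPS and -1.14 to 1.98 for IgD at 2% RPS. The IgG slope ran from 0.318 to 0.432 and passed an adjusted permutation p of 0.05 in 4 of the 20 fits (without control mouse 2, mouse 3 on 2%, mouse 4 on 5% or mouse 2 on 10% RPS). Within IgG the slopes ran from -0.017 to 1.259 for Ighg1, -0.843 to 0.116 for Ighg2b and -0.095 to 0.004 for Ighg2c. The log2 ratio of Igkc to heavy chains moved from -0.15 to 0.14 at 5% and -0.11 to 0.18 at 2% RPS, that of Pigr to Igha from -0.55 to 0.07 at 10% and -0.18 to 0.43 at 2% RPS, and that of Jchain to Igha plus Ighm from -0.05 to 0.08, -0.01 to 0.23 and -0.10 to 0.20 at 10, 5 and 2% RPS, with slopes of -0.006 to 0.006. The r of Igha and Ighm ran from 0.39 to 0.62 and that of Igha and Pigr from 0.41 to 0.59.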
